A study of Mus musculus with 2 samples.

Results

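The core type I interferon response module is a list of 39 mouse genes that sense nucleic acid, carry the type I interferon signal or are induced by it. A listed gene was kept when it stood in the gene tables of both libraries and reached 10 CPM (counts scaled to a total of 1000000) in a cell type of either library. All 39 genes were in both tables, and 38 of them reached that minimum, of 27842 genes listed in either table. The gene that did not was Ifit3b, a near-identical copy of Ifit3. The 38 members comprise 2 receptor chains, 4 transcription factors, 7 sensors, 2 oligoadenylate synthetase-like genes, 19 effectors and 4 regulators or modifiers. They were measured by single-cell RNA sequencing of marrow cells of C57/BL6 mice, freed from femurs and tibias. One library is the control, from animals that received sodium citrate solution and had normal blood sugar. The other library, T1D, is from animals given streptozotocin, a compound toxic to the beta cells of the pancreas, whose blood sugar was high (Type 1 diabetes in the labels). Neither the age nor the number of animals behind each library is given in the labels.

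Type I interferons are secreted proteins that bind a receptor made of the chains Ifnar1 and Ifnar2. The receptor activates Stat2, which acts with Irf9 at interferon-stimulated response elements in the promoters of a large set of target genes. Those targets include the sensors that detect foreign RNA or DNA, effector proteins that block viral replication, and regulators such as Usp18 that shut the receptor down again. In bone marrow, low tonic interferon signalling is known to shape stem cells and the readiness of leaving myeloid cells.

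Promoters of the members are shown first, because the response element is the feature by which interferon-induced genes are known, and it makes no use of the counts. The windows come from RefSeq on the mouse build GRCm38.p6, which is not the build the submitters name, and each is written 5′ to 3′ on the strand of its gene. The element was searched on both strands as GAAA, any 2 bases and GAAA again (read from the other strand TTTC, any 2 bases and TTTC) in windows from 250 bases before to 50 bases after each start site. It was present in 3.44% of 32851 promoters and in 16 of the 40 promoters of listed genes. These belonged to 14 of the 31 listed genes that had an entry, namely Bst2, Ddx58, Ifih1, Ifit1, Ifit1bl1, Ifit1bl2, Ifit3, Ifit3b, Isg15, Oas1a, Oas3, Rsad2, Stat2 and Trim30a. A gamma-activated site was searched as TTC, any 3 bases and GAA, which reads the same on both strands. It was in 8.30% of all promoters and in 7 of the 40, which belonged to 7 of the 31 genes (Bst2, Ifit2, Ifnar1, Ifnar2, Irf1, Isg20 and Oas1a). The 8 genes without an entry were Dhx58, Zbp1, Oas2, Mx1, Parp14, Ly6e, Usp18 and Rtp4. Capitals mark the matched bases, and a match is a description of the letters only. Isg15, which carries 3 overlapping elements, and Irf1, which carries a gamma-activated site 90 bases upstream and no such element in the 150 bases shown, are given as the 150 bases upstream of their start sites. Isg15 lies on the minus strand at chr4:156200819-156200968 and Irf1 on the plus strand at chr11:53769864-53770013 (2 RefSeq entries).
Isg15: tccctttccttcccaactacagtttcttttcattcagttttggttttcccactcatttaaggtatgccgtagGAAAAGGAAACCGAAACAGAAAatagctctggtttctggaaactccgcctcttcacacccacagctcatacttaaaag
Irf1: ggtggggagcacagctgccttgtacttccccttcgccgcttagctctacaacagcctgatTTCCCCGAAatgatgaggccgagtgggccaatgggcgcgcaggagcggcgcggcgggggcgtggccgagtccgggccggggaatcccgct

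The next windows hold the element with up to 15 bases on either side, for members whose levels are described below. They are Oas1a (chr5:120907526-120907560, minus strand), Oas3 (chr5:120777710-120777749, minus strand) and Bst2 (chr8:71537572-71537617, minus strand).
Oas1a: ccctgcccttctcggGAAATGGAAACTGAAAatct
Oas3: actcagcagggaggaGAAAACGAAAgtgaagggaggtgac
Bst2: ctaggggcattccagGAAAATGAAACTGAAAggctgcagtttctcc

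The genes Ifit1 and Ifit1bl2 face away from each other and share one stretch of bases, chr19:34640770-34640828, read on the plus strand for Ifit1 and on the minus strand for Ifit1bl2. Ifit3 (chr19:34583358-34583431) and Ifit3b (chr19:34607754-34607827), both on the plus strand, hold the same 74 bases in separate places. Reads from such copies may be split between them, so their counts are uncertain.
Ifit1: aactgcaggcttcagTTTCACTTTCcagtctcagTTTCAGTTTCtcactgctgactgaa
Ifit1bl2: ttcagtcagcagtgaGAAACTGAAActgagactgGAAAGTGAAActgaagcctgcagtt
Ifit3: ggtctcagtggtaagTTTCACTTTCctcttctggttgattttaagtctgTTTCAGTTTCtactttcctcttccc
Ifit3b: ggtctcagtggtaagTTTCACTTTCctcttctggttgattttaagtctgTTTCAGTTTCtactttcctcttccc

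The control library gave 12803 kept cells with a median of 3633 counts, and the T1D library 15579 kept cells with a median of 2757. Cell classes were named from marker genes after clustering without the members, and each name carries the sense of "like". The mature neutrophil clusters, for example, each held all 8 of their markers, among them Retnlg, Cxcr2, Csf3r and Il1b. There were 10 classes with at least 100 cells in both libraries, from the basophil or mast class (130 control and 103 T1D cells) to the immature neutrophils (3854 and 5731). Counts were summed per class and library and given as CPM, and folds are ratios of those CPM values with nothing added. With 1 library per group there was no replicate check and no p-value, and every interval is an exact 95% interval that covers counting error only. A gene was counted as lower or higher in T1D when it reached 10 CPM in the higher library, its log2 ratio with 5 CPM added to both values was at least 1 in size, and its interval excluded 1. The share of all genes that passed this size rule is given beside the first count of members in each comparison. The libraries shared 253 barcodes, and neutrophil genes (Retnlg, Clec4d, Il1r2 and Cxcr2) had counts in every class. They stood at 3.83% of their mature neutrophil level in control monocytes and 7.75% in T1D monocytes, and at 25.6% and 23.7% in mature B cells. Whether free RNA or joined cells gave these counts was not tested.

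The module was lower in the T1D library across most of the marrow. Over all kept cells, 30 members reached 10 CPM, and 28 of them were below the control level with an interval that excluded 1. Of all genes at that minimum, 66.0% were below the control level, whatever their interval. The members' median log2 ratio was -0.56, and that of all genes was -0.11. Oas1a, which makes the short adenylate chains that activate RNase L, stood at 15.8 CPM in control and 3.54 in T1D, 4.48-fold lower (3.81 to 5.27). Bst2, the surface protein tetherin that holds budding virus on the cell, stood at 103 and 33.6 CPM, 3.06-fold lower (2.9 to 3.23). These 2 members passed the size rule on the lower side, as did 2.09% of all genes. No member was higher by the rule, against 0.61% of all genes, and Irf1 (31.5 and 33.7 CPM) and Ifit2 (11.3 and 13 CPM) were the members above the control level. Fewer cells of a type and less RNA per cell cannot be told apart in values summed over all cells, so the classes are described next.

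Over the 10 classes, 272 pairs of a member and a class reached 10 CPM, and 225 of them (82.7%) were below the control level. The share of all genes below it was 45.1% in immature neutrophils, 47.2% in stem or multipotent progenitors, 47.8% in mature neutrophils and 49.1% in macrophages. It was 51.7% in T or NK cells, 53.0% in erythroid cells and 55.3% in mature B cells. In granulocyte-monocyte progenitors it was 57.0%, in the basophil or mast class 57.5% and in monocytes 60.2%. For members the counting interval lay wholly below 1 in 144 pairs and wholly above 1 in 9, and no such count was made over all genes. Those 9 pairs belonged to Irf1 (4 classes), Ly6e (3) and Ifit2 (2). By the size rule 51 pairs were lower and 1 was higher, against 2.57% and 2.44% of all pairs of a gene and a class. In at least 1 class 22 members were lower, as were 13.2% of all genes measured in any of the classes. Macrophages (13), mature neutrophils (11) and mature B cells (8) held the most, as the map of log2 ratios shows.

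**Figure D1:**
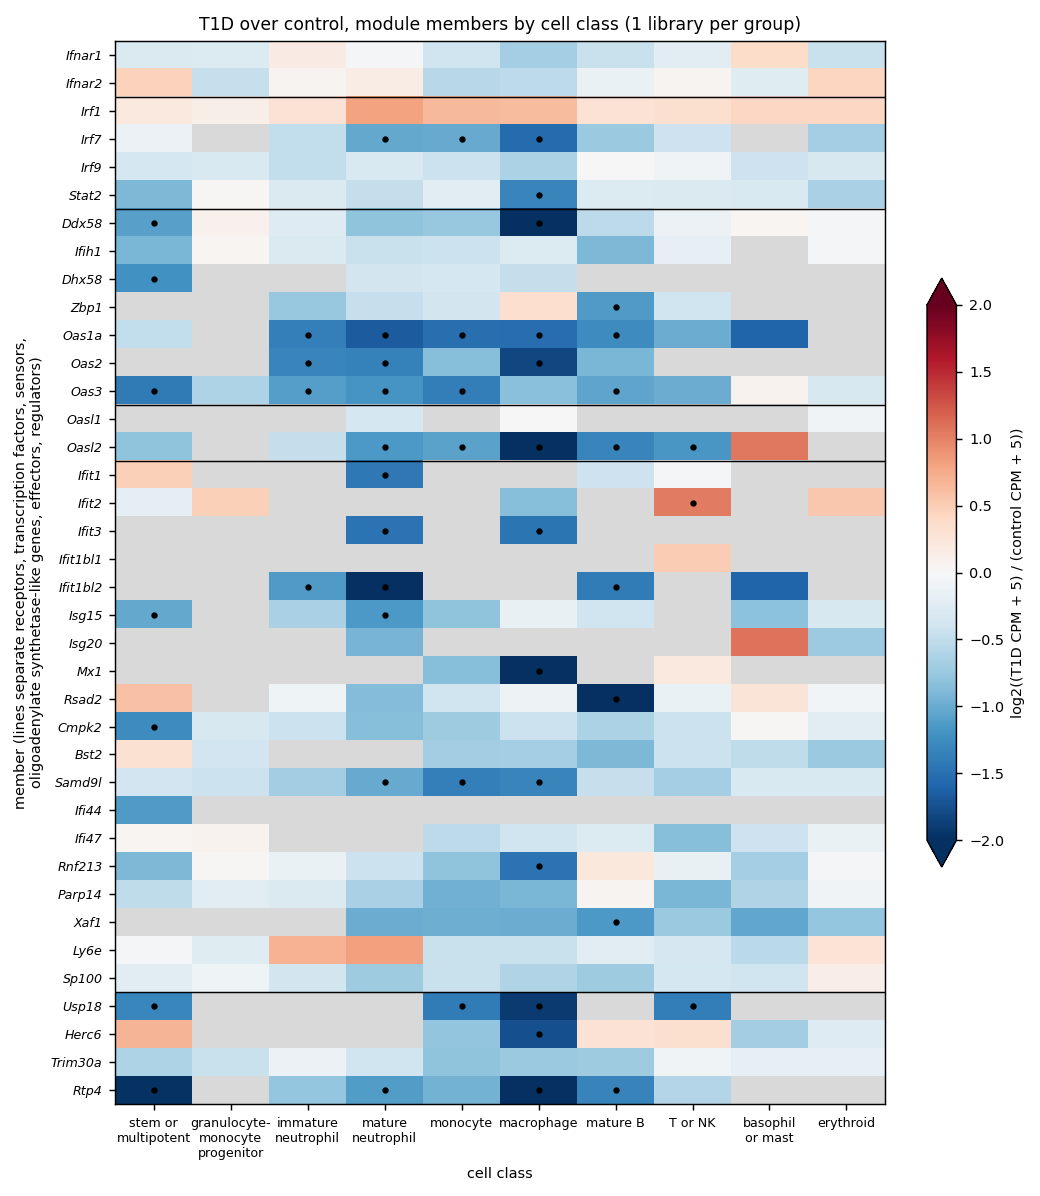
Log2 ratio of T1D over control, with 5 CPM added to both values, for each member (rows, by role) in the 10 compared classes (columns), where grey marks pairs under 10 CPM in both libraries and dots mark pairs that passed the size rule. Of the 272 coloured pairs, 225 are below 0, and the Irf1 row is above 0 in all 10 classes.

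In mature neutrophils (1703 control and 3052 T1D cells) 30 members were measured, 27 were below the control level, and their median log2 ratio was -0.83 against 0.02 for all genes. Over other starts of the clustering the members' median ranged from -0.85 to -0.68, and the class held 1492 to 2305 control cells. Here 11 members were lower by the size rule, against 1.64% of all genes, and none was higher, against 1.92%. They were Irf7, Oas1a, Oas2, Oas3, Oasl2, Ifit1, Ifit3, Ifit1bl2, Isg15, Samd9l and Rtp4. Most of the control cells of this class fell in another cluster than most of the T1D cells. The cluster with Gm5483, Prok2 and Asprv1 as its leading genes held 384 control and 2968 T1D cells, and the one with Clec4d, Il1f9 and Acod1 held 1319 and 84. Within the first, 11 members were lower (2.8% of all genes), without Irf7 and Samd9l and with Ifit2 and Rsad2 in place of them. Within the second 7 were lower (2.99%) and 1, Irf1, was higher (7.36%). Oas3 stood at 207 and 79.3 CPM in the first and at 181 and 71.4 CPM in the second, so its difference was about as large within each cluster.

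Monocytes (1742 and 1941 cells) had 29 of 30 members below the control level and a median log2 ratio of -0.78 against -0.08 for all genes. The 6 lower members were Irf7, Oas1a, Oas3, Oasl2, Samd9l and Usp18 (0.953% of all genes), and none was higher (1.5%). The class is made of 3 clusters, and more members passed in 2 of them. In the cluster led by Saa3, Vcan and Slfn5, itself an interferon-induced gene, 17 members were lower (1.73% of all genes). In the cluster led by Saa3, Vcan and Apoe 14 were lower (2.82%), and in the cluster led by Itga1, Klf4 and F13a1 4 were (1.03%). Samd9l was lower in all 3 clusters. It stood at 163 CPM in control and 29 in T1D in the first of these clusters, at 387 and 159 in the second, and at 78.2 and 14.9 in the third.

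Macrophages (271 and 156 cells) had 31 of 33 members below the control level and a median log2 ratio of -0.83 against 0.01 for all genes. The 13 lower members were Irf7, Stat2, Ddx58, Oas1a, Oas2, Oasl2, Ifit3, Mx1, Samd9l, Rnf213, Usp18, Herc6 and Rtp4 (4.58% of all genes), and none was higher (5.82%). Markers of another cell type moved in this class. The summed level of 10 conventional dendritic markers, all detected, was 20234 CPM in control and 7633 in T1D, while that of 8 macrophage markers was 2885 and 4437. The 9 mature B markers summed to 5229 and 2058 CPM (2 at 0 in T1D), the 8 monocyte markers to 3665 and 2113 CPM and the 10 erythroid markers to 1042 and 3631 CPM. H2-Aa is in both the conventional dendritic and the mature B list and is among the leading genes of this class, so those sums overlap. The part of all these markers in the members' difference was not tested.

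In mature B cells (1264 and 496 cells) 25 of 29 members were below the control level, with a median log2 ratio of -0.64 against -0.06 for all genes. The 8 lower members were Zbp1, Oas1a, Oas3, Oasl2, Ifit1bl2, Rsad2, Xaf1 and Rtp4 (3.83% of all genes), and none was higher (1.86%). The 9 pro- or pre-B markers summed to 1302 CPM in control and 288 in T1D in this class, where 5 of them were at 0, and their part was not tested. The class is made of 2 clusters that differed in neutrophil RNA. The cluster led by Ms4a1, Scd1 and Ighd (815 and 223 cells) held the 4 neutrophil genes at 34.7% of the mature neutrophil level in control and 39% in T1D, and the cluster led by Ms4a1, Fcmr and Scd1 (449 and 273 cells) at 0.842% and 2.38%. In the first 8 members were lower (5.18% of all genes), and in the second 1 was, Ifi47 (7.77%). Oas3 stood at 87.3 and 48 CPM in the cluster with neutrophil RNA and at 5.27 and 2.02 CPM in the other, and Ifit1bl2 had 0 counts in both libraries of the other. The part of neutrophil RNA in the mature B result was not tested.

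Immature neutrophils had 20 of 24 members below the control level, with 4 lower by the rule (Oas1a, Oas2, Oas3 and Ifit1bl2, against 0.401% of all genes) and none higher (0.89%). Stem or multipotent progenitors (224 and 154 cells) had 22 of 29 below, with 7 lower (Ddx58, Dhx58, Oas3, Isg15, Cmpk2, Usp18 and Rtp4, against 3.56%) and none higher (3.16%). In that class the 5 eosinophil markers summed to 1127 CPM in control and 165 in T1D, where 3 of them were at 0. The 8 plasma markers summed to 933 and 262 CPM and the 9 pro- or pre-B markers to 292 and 65.5 CPM. The 7 megakaryocyte markers summed to 3075 and 2793 CPM, above the 10 stem or multipotent markers of the class itself (2122 and 2393 CPM). The megakaryocyte markers Pf4 and Itga2b were among its leading genes. The part of these other markers was not tested. T or NK cells (402 and 574 cells) had 24 of 30 below, 2 lower (Oasl2 and Usp18, against 2.51%) and 1 higher (Ifit2, against 2.06%). The 8 NK markers summed to 1941 CPM in control and 850 in T1D in this class, and the 8 T markers to 2122 and 1735.

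No member passed the rule in 3 classes. In granulocyte-monocyte progenitors (1175 and 2212 cells) 11 of 18 members were below the control level, as were 57.0% of all genes. By the rule 0.506% of all genes were lower there and 0.558% higher. In the basophil or mast class 16 of 24 members were below (57.5% of all genes), with 5% of all genes lower and 3.65% higher. In erythroid cells it was 20 of 25 (53.0% of all genes), with 1.7% lower and 2.13% higher. The progenitor class holds 3 clusters, and in the one led by Prg2, Mpo and Prtn3 (277 and 707 cells) Oas3, Oasl2 and Xaf1 were lower (0.906% of all genes). In the remaining clusters, led by Fcnb and Elane and by Mpo and Ctsg, none was (0.61% and 0.9%). The members' median log2 ratio in the class was -0.23, and it ranged from -0.27 to 0.01 over other starts of the clustering, which held 428 to 1175 control cells in it.

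The receptor chains differed little in mature neutrophils and were lower in monocytes. In mature neutrophils Ifnar1, the signalling chain, stood at 35.2 CPM in control and 34.6 in T1D. Ifnar2, the high-affinity binding chain, stood at 43.2 and 48.4 CPM there. In monocytes Ifnar1 stood at 43.1 and 31.4 CPM, 1.37-fold lower (1.17 to 1.61), and Ifnar2 at 82 and 54.4 CPM, 1.51-fold lower (1.34 to 1.69). Neither chain passed the size rule in any of the 10 classes. Ifnar2 overlaps the gene model Gm21970 on the same strand, so reads may be split between them.

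Of the 4 transcription factors, Irf7, Irf9 and Stat2 were below the control level in 8 of 8, 10 of 10 and 9 of 10 classes measured, and Irf1 was above it in 10 of 10. Irf7, the master factor of interferon production that is itself induced by interferon, stood at 38.7 CPM in control and 16.4 in T1D in mature neutrophils, 2.35-fold lower (1.84 to 3.02). It stood at 48.1 and 21.4 CPM in monocytes, 2.25-fold lower (1.89 to 2.69), and at 73.4 and 22 CPM in macrophages, 3.34-fold lower (1.72 to 7.23). In the mature neutrophil cluster led by Gm5483 Irf7 stood at 25.7 and 16.3 CPM, from 24 and 102 counts. It passed the size rule in neither single cluster of mature neutrophils.

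Irf1, a factor that answers type I interferon, interferon gamma and inflammatory signals, was above the control level in all 10 classes. It stood at 28.2 CPM in control and 53.2 in T1D in mature neutrophils, 1.89-fold higher (1.54 to 2.33), and at 27 and 45.1 CPM in monocytes, 1.67-fold higher (1.43 to 1.96). Its interval excluded 1 in those classes, in immature neutrophils (16.6 and 21.4 CPM) and in macrophages (52 and 83.5 CPM), and it passed the size rule in no whole class. Within the single clusters of mature neutrophils Irf1 stood at 34.3 and 52.4 CPM and at 26.6 and 76.1 CPM, the latter from 99 and 16 counts and past the rule. Irf7 and Irf1 thus lay on opposite sides of the control level in the same classes, as the plot of ratios by class shows. The Irf1 promoter printed above holds the gamma-activated site and no response element in the bases shown. The search found no response element for Irf7 either. Bst2 and Oas1a, both lower over all kept cells, also hold a gamma-activated site. A link between these letters and the levels was not tested.

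Irf9, the DNA-binding part of the interferon complex, stood at 70.3 CPM in control and 51 in T1D in monocytes and at 55.9 and 44.5 CPM in mature neutrophils. Stat2, its partner, stood at 37 and 30.8 CPM in monocytes and passed the rule in macrophages alone, at 51.1 and 17.6 CPM, 2.91-fold lower (1.38 to 7.07). Irf9 overlaps Rnf31 on the same strand, and the strand setting of the counting is not given in the sources used here.

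**Figure D2:**
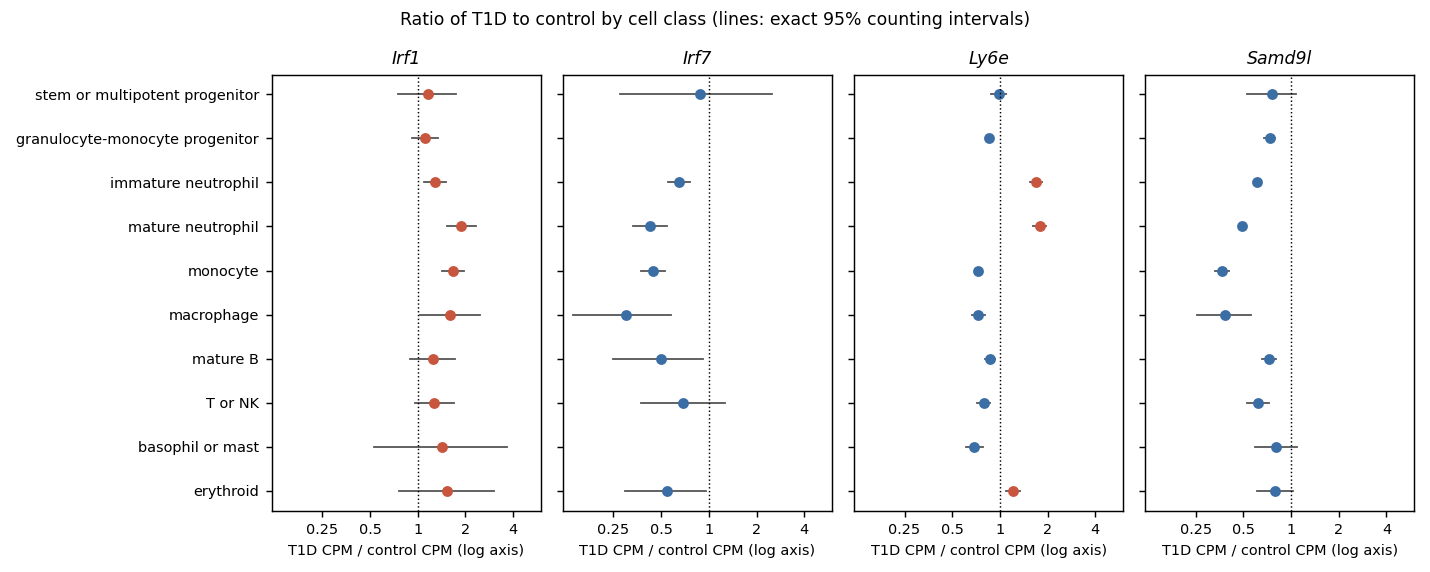
Ratio of T1D over control CPM on a log axis with exact 95% intervals for Irf1, Irf7, Ly6e and Samd9l, in each class where the member reached 10 CPM. Irf1 lies above 1 in all 10 classes, Irf7 below 1 in all 8 of its classes, Samd9l below 1 in all 10, and Ly6e on both sides.

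Among the sensors, the oligoadenylate synthetases Oas1a, Oas2 and Oas3 had median log2 ratios over their classes of -1.44, -1.32 and -1.02. Oas1a stood at 20.6 CPM in control and 3.1 in T1D in mature neutrophils, 6.66-fold lower (4.08 to 11.4), and at 29.2 and 7.01 CPM in monocytes, 4.17-fold lower (3.14 to 5.63). Oas2 stood at 41 and 13 CPM in mature neutrophils, 3.15-fold lower (2.43 to 4.13). Oas3, the largest of the 3 enzymes, stood at 186 and 79.1 CPM there, 2.36-fold lower (2.11 to 2.63), and at 43.2 and 13.5 CPM in monocytes, 3.19-fold lower (2.59 to 3.97). Oas1a and Oas3 were each lower by the rule in 5 classes and Oas2 in 3. Oas1a has near-identical neighbours in its gene cluster, so its counts are uncertain.

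The other sensors had medians of -0.39 (Ddx58), -0.30 (Ifih1), -0.42 (Dhx58) and -0.43 (Zbp1) over their classes, with single classes far from them. Ddx58, the RNA helicase RIG-I, stood at 96.1 CPM in control and 52.9 in T1D in mature neutrophils, 1.82-fold lower (1.58 to 2.1). In macrophages it stood at 74.3 and 4.39 CPM, from 80 and 2 counts, 16.9-fold lower with an interval from 4.53 to 142. Its level in granulocyte-monocyte progenitors was 20.8 and 22.2 CPM. Ddx58 was thus far apart between the libraries in some classes and nearly level in others. Ifih1, the sensor of long double-stranded RNA, stood at 35.6 and 25.1 CPM in monocytes and at 44.6 and 43.5 CPM in erythroid cells, and passed the rule nowhere. Dhx58, a helicase that tunes the other helicases, reached 10 CPM in 4 classes, stood at 16.1 and 11.5 CPM in monocytes and passed the rule in stem or multipotent progenitors. Zbp1, a sensor of left-handed nucleic acid that can start cell death, stood at 55.9 and 42.3 CPM in monocytes and at 51.1 and 65.9 CPM in macrophages.

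Oasl2, a synthetase-like protein, followed the synthetases. It stood at 99.3 CPM in control and 42 in T1D in mature neutrophils, 2.36-fold lower (2.03 to 2.76), at 36.6 and 14.9 CPM in monocytes and at 62.2 and 11 CPM in macrophages. Oasl1, which is known to restrain translation of Irf7, did not follow it so far, with 17.6 and 12.7 CPM in mature neutrophils and 17.6 and 16.5 CPM in erythroid cells.

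The effectors with tetratricopeptide repeats bind foreign RNA ends. In mature neutrophils Ifit1bl2 stood at 64.9 CPM in control and 11.8 in T1D, 5.51-fold lower (4.27 to 7.18), and Ifit1, on the other side of the shared bases printed above, at 28.2 and 7.29 CPM, 3.86-fold lower (2.75 to 5.51). Ifit3 stood at 15 and 2.17 CPM, 6.93-fold lower (3.87 to 13.3). The difference of Ifit1bl2 was alike in both mature neutrophil clusters, at 65.4 and 11.9 CPM and at 64.8 and 9.51 CPM. Ifit1bl2 and Ifit3 have close copies in the same gene cluster, so their counts are uncertain.

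Ifit2 and Ifit1bl1 did not share that pattern. Ifit2 was higher in T1D in T or NK cells, at 7.97 CPM in control and 21.6 in T1D, 2.71-fold (1.3 to 6.18), from 10 and 32 counts. Its level in granulocyte-monocyte progenitors was 19.2 and 28.7 CPM, 1.5-fold higher (1.24 to 1.81), and that in macrophages was 39.9 and 19.8 CPM. Ifit1bl1 reached 10 CPM in T or NK cells alone, at 12.8 and 20.3 CPM.

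Isg15, the ubiquitin-like protein that is attached to viral and host proteins, stood at 36.5 CPM in control and 13.8 in T1D in mature neutrophils, 2.65-fold lower (2.04 to 3.46), and was below the control level in all 8 classes measured. Rsad2, the enzyme viperin, stood at 112 and 59.2 CPM in mature neutrophils and at 47.6 and 45.7 CPM in erythroid cells. Cmpk2, the nucleotide kinase next to it in the genome, stood at 65.8 and 34.3 CPM and at 96.2 and 81.7 CPM in the same classes. Isg20, an exonuclease, was most abundant in erythroid cells, at 83.8 and 48.7 CPM, 1.72-fold lower (1.29 to 2.32). The erythroid class thus held Rsad2, Cmpk2 and Isg20, and the intervals of Rsad2 and Cmpk2 included 1 there.

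Samd9l, a restriction factor that curbs translation and myeloid growth, was below the control level in all 10 classes. It stood at 792 CPM in control and 389 in T1D in mature neutrophils, 2.03-fold lower (1.93 to 2.14), and at 156 and 57.5 CPM in monocytes, 2.72-fold lower (2.45 to 3.02). In the mature neutrophil cluster led by Gm5483 Samd9l stood at 706 and 384 CPM. It passed the size rule in neither single cluster of mature neutrophils. Mx1, a dynamin-like antiviral protein that is truncated in common laboratory strains, stood at 31.1 and 15.1 CPM in monocytes and at 55.7 and 8.79 CPM in macrophages, 6.34-fold lower (2.35 to 24). Xaf1, a promoter of cell death, stood at 30.6 and 13.1 CPM in monocytes, 2.35-fold lower (1.88 to 2.95), and was below the control level in all 7 classes measured.

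Bst2 is a marker of plasmacytoid dendritic cells in mice. Plasmacytoid dendritic cells, 461 in control and 74 in T1D and therefore not compared, held 56.9% of all Bst2 counts in control and 17.0% in T1D, at 3.60% and 0.475% of the cells. Within them Bst2 stood at 1636 CPM in control and 1030 in T1D, while in monocytes it stood at 80.5 and 47.7 CPM and in stem or multipotent progenitors at 84.7 and 106 CPM. Without the plasmacytoid dendritic cells the log2 ratio of Bst2 over all kept cells was -0.62, against -1.48 with them. Bst2 passed the rule in none of the 10 compared classes.

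Ly6e, a surface protein anchored in the membrane that blocks virus entry, lay on both sides of the control level. It was higher in T1D in mature neutrophils, at 138 CPM in control and 247 in T1D, 1.78-fold (1.63 to 1.96), and in immature neutrophils, at 52.5 and 88 CPM, 1.68-fold (1.54 to 1.83). In monocytes it was lower, at 1981 and 1447 CPM, 1.37-fold (1.34 to 1.4). Sp100, a nuclear body protein, was lower in both, at 278 and 168 CPM in mature neutrophils and at 286 and 208 CPM in monocytes. Ly6e passed the size rule in no class.

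The remaining effectors are large proteins and GTPases. Rnf213, a giant ubiquitin ligase, stood at 98.7 CPM in control and 54.1 in T1D in monocytes, 1.82-fold lower (1.63 to 2.04), and at 73.5 and 86.2 CPM in mature B cells. Parp14, which adds ADP-ribose to proteins, stood at 79 and 38 CPM in monocytes, 2.08-fold lower (1.83 to 2.38), and at 62.8 and 65.1 CPM in mature B cells. Ifi47, an immunity-related GTPase, stood at 68.6 and 35.8 CPM in T or NK cells, 1.92-fold lower (1.35 to 2.75), and at 21.4 and 22.7 CPM in granulocyte-monocyte progenitors. Ifi44 reached 10 CPM among the compared classes in stem or multipotent progenitors alone, at 12.4 and 2.98 CPM from 16 and 2 counts, with a ratio of 4.18 (0.982 to 37.4). Parp14 and Ifi47 each overlap another gene model on the same strand.

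Usp18, which removes Isg15 from proteins and blocks the receptor, was lower by the rule in all 4 classes where it reached 10 CPM. It reached that minimum in the control library alone, and classes where it was low in both libraries were not counted. In monocytes it stood at 14.5 CPM in control and 2.42 in T1D, 5.99-fold lower (3.74 to 10.1), and in T or NK cells at 16.7 and 3.38 CPM, 4.96-fold lower (1.82 to 16.8). In macrophages it had 15 counts in control and 0 in T1D, which is at least 2.11-fold lower if 3 counts are taken for the 0. Rtp4, a regulator of interferon responses, stood at 59.7 and 25 CPM in mature neutrophils, 2.39-fold lower (1.96 to 2.93). In stem or multipotent progenitors it had 19 counts in control and 0 in T1D, at least 3.31-fold lower by the same bound, and the median log2 ratios of both classes were the same with these bounds. Trim30a, which restrains inflammatory signalling, was below the control level in all 10 classes without passing the rule, at 222 and 125 CPM in monocytes. Herc6, the mouse ligase that attaches Isg15, stood at 12.9 and 5.32 CPM in monocytes and at 14.8 and 26.8 CPM in stem or multipotent progenitors.

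The class in which a member was most abundant was read in each library. In the control library 11 members had their highest level in mature neutrophils (Ddx58, Oas2, Oas3, Oasl2, Ifit1, Ifit3, Ifit1bl2, Isg15, Rsad2, Samd9l and Rtp4), 11 in plasmacytoid dendritic cells and 9 in macrophages. Both receptor chains and all 4 transcription factors were among those highest in plasmacytoid dendritic cells, where Irf1 stood at 162 CPM, Stat2 at 139 and Ifnar2 at 151. The next class stood well below for Irf1 (70.2 CPM, T or NK cells), but the order was close for Ddx58, at 96.1 CPM in mature neutrophils and 92.2 in mature B cells, and for Ifit3, at 15 CPM in mature neutrophils and 14.9 in macrophages. In the T1D library, where plasmacytoid dendritic cells were under 100 cells and not ranked, 8 members were highest in mature neutrophils, 7 in macrophages and 6 in T or NK cells. The receptor chains and factors were then highest in T or NK cells (Ifnar1 and Irf1), macrophages (Ifnar2 and Irf7) and monocytes (Irf9 and Stat2).

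The path from progenitors to mature cells was compared within each library. In mature neutrophils against granulocyte-monocyte progenitors, 17 of 33 members were higher in the control library and 4 were lower, while 11.3% of all genes were higher and 54.8% lower. In the T1D library 15 of 27 were higher and 4 lower, while 10.1% of all genes were higher and 51.3% lower. The members' median log2 ratio was 1.03 in both libraries, and that of all genes was -1.19 in control and -1.04 in T1D. Oas3 went from 12.2 CPM in progenitors to 186 in mature neutrophils in control, 15.2-fold (12.5 to 18.7), and from 6.28 to 79.1 CPM in T1D, 12.6-fold (9.82 to 16.3). Ifit1bl2 went from 1.52 to 64.9 CPM in control, 42.8-fold (25.1 to 79.3), and from 1.13 to 11.8 CPM in T1D, 10.4-fold (5.73 to 20.4). The steps ran the same way in both libraries and started from low progenitor levels. In progenitors Ifit1bl2 stood at 2.33% of its mature neutrophil level in control and 9.62% in T1D. The neutrophil genes Retnlg, Clec4d, Il1r2 and Cxcr2 stood at 3.47% and 5.58% there. The part of neutrophil RNA in the progenitor levels, and so in these folds, was not tested.

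The 14 members higher in both libraries were Irf7, Irf9, Ddx58, Zbp1, Oas2, Oas3, Oasl1, Oasl2, Ifit1bl2, Isg15, Rsad2, Samd9l, Trim30a and Rtp4. Irf1 was higher by the rule in T1D alone, from 23.5 to 53.2 CPM, against 21.2 to 28.2 CPM in control. The 4 members lower in both libraries were Ifit2, Bst2, Ifi47 and Ly6e. Bst2 went from 77.9 to 6.02 CPM in control, 12.9-fold lower (8.88 to 19.6), and from 58.4 to 3.57 CPM in T1D, 16.4-fold lower (10.8 to 26). Ly6e went from 802 to 138 CPM in control and from 679 to 247 CPM in T1D. Among the progenitor clusters Ly6e stood at 136 CPM in control and 197 in T1D in the one led by Fcnb and Elane, and at 1153 and 939 CPM in the one led by Prg2, Mpo and Prtn3. When libraries were scaled by TMM or DESeq2 size factors, which move all log2 ratios of this comparison by 0.98 to 1.08 in control and 0.94 to 1.04 in T1D, the split became 28 or 29 higher and 2 lower in control and 22 higher with 3 or 2 lower in T1D. The shares of all genes became 24.5% or 26.5% higher and 35.3% or 33.3% lower in control, and 23.3% or 25.5% higher and 30% or 28.3% lower in T1D. Ifit2, Bst2, Ifi47 and Ly6e stayed below the progenitor level under both scalings.

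**Figure D3:**
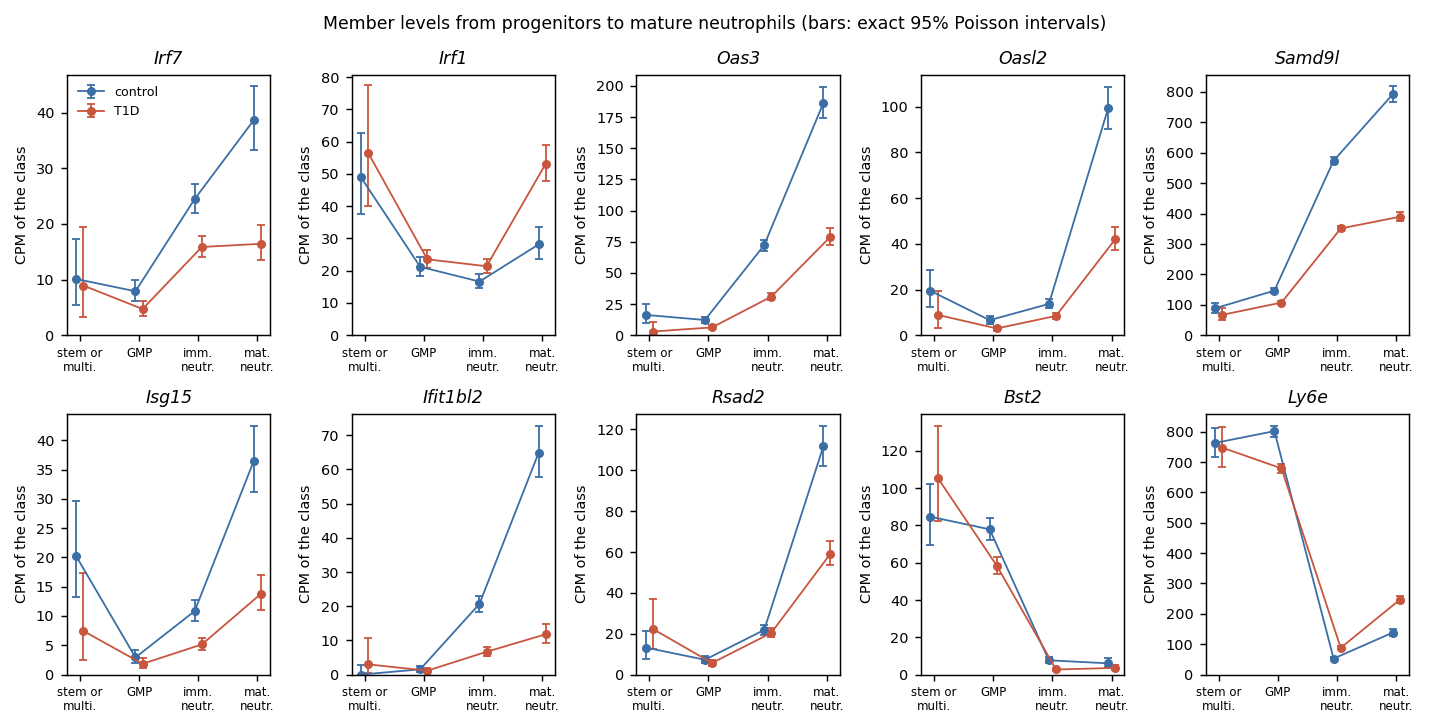
Level in CPM with exact 95% Poisson intervals for 10 members along stem or multipotent progenitors, granulocyte-monocyte progenitors, immature neutrophils and mature neutrophils, control and T1D libraries as separate lines. Oas3 reaches 186 CPM in control and 79.1 in T1D at the mature stage, while Bst2 drops to 6.02 and 3.57.

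On the monocyte side, 18 of 31 members were higher in monocytes than in granulocyte-monocyte progenitors in the control library and none was lower, while 7.33% of all genes were higher and 8.54% lower. In the T1D library 8 of 25 were higher and 1, Ifit2, was lower, while 6.72% of all genes were higher and 8.88% lower. The 8 higher in both were Irf7, Irf9, Dhx58, Zbp1, Oasl2, Mx1, Xaf1 and Ly6e. Oas3 went from 12.2 to 43.2 CPM in control and from 6.28 to 13.5 CPM in T1D, where it did not pass the rule. Whether the step itself differed between the libraries could not be tested.

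Stem or multipotent progenitors stood above granulocyte-monocyte progenitors for several members. The stem class also held the megakaryocyte markers described above, and their part in this comparison was not tested. Its size depended on the start of the clustering, as given above. In the control library 9 members were lower in the later progenitors and none was higher, while 9.86% of all genes were lower and 8.29% higher. In the T1D library 5 were lower and 1 was higher, while 13% of all genes were lower and 9.19% higher. Irf1, Ifit1 and Ifi47 were lower in both, with Irf1 at 49 and 21.2 CPM in control and at 56.6 and 23.5 CPM in T1D. The member higher in T1D was Cmpk2, at 7.44 and 32.4 CPM, from 5 counts in the stem class. In the B lineage of the control library, 12 of 30 members were higher in mature B cells than in pro- or pre-B cells and none was lower, while 8.95% of all genes were higher and 14% lower. Among them Oas3 went from 12.9 to 65.2 CPM and Rsad2 from 5.98 to 39.6 CPM. In the mature B cluster with little neutrophil RNA they stood at 5.27 and 3.51 CPM, and the part of neutrophil RNA in this step was not tested.

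Sensors and effectors were then set side by side. In mature neutrophils the 7 sensors had a median log2 ratio of -0.80 and the 13 effectors measured one of -0.93, and in monocytes the medians were -0.76 and -0.75. The sensor median was the lower one in immature neutrophils (-0.93 against -0.36), mature B cells (-0.99 against -0.46) and stem or multipotent progenitors (-1.08 against -0.21). Over the 10 classes the sensor median was below the effector median in 6. With the synthetases counted as effectors it was below in 2, so the number of classes depended on where Oas1a, Oas2 and Oas3 are placed. The sensors without these 3 had medians of -1.08 in stem or multipotent progenitors, -0.90 in mature B cells and -0.30 in immature neutrophils. Along neutrophil maturation 4 of 7 sensors were higher in mature cells in the control library and none was lower, while 7 of 16 effectors were higher and 4 lower.

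Single cells were thinned to 1000 counts each, with none left out, and 33 members were counted, leaving out the most abundant ones (Ly6e, Bst2, Samd9l, Sp100 and Trim30a). At least 3 different members were found in 5.81% of control cells and in 2.12% of T1D cells. The shares were 11.6% and 3.93% in mature neutrophils, 10.2% and 3.04% in monocytes and 16.6% and 3.85% in macrophages. Among T or NK cells they were 2.49% and 3.14%, with overlapping intervals. Without thinning the shares over all cells were 37.9% and 15.3%, which also carry the gap in depth. The 1% of cells with the most member counts held 8.74% of those counts in control and 8.29% in T1D.

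**Figure D4:**
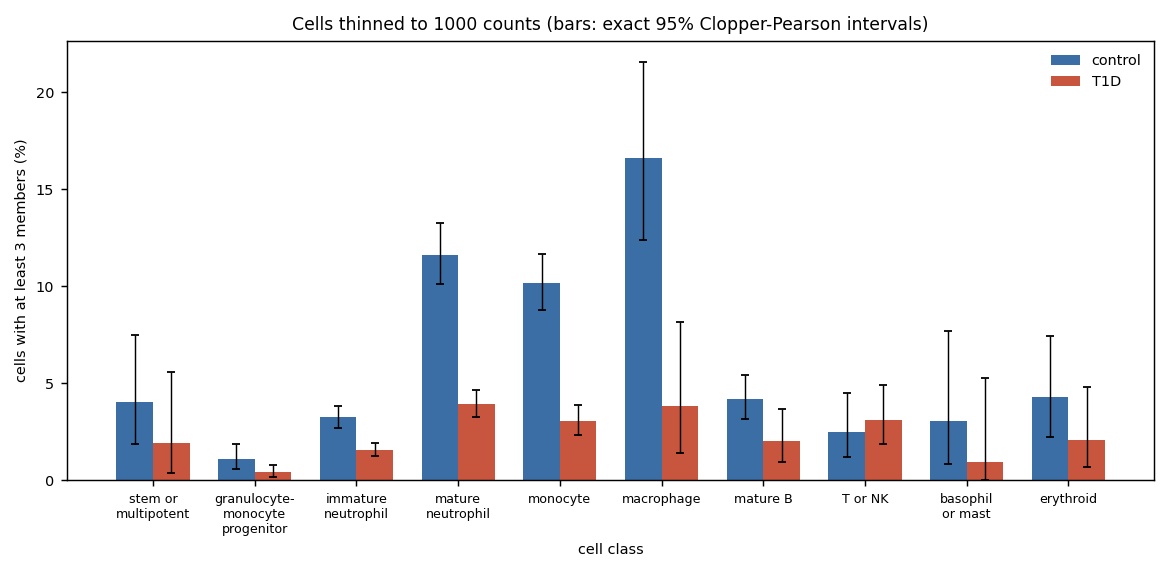
Percent of cells with at least 3 different members after thinning each cell to 1000 counts, by class and library, with exact 95% Clopper-Pearson intervals. Mature neutrophils stand at 11.6% in control and 3.93% in T1D, and T or NK cells at 2.49% and 3.14%.

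Other genes of the pathway were read from lists. Of 21 interferon ligands 4 were in the tables, with 89 counts in control and 40 in T1D, of which 86 and 36 were Ifng, so no ligand reached 10 CPM over all kept cells. Ifng, the type II interferon, did so in T or NK cells, at 46.3 CPM in control and 11.5 in T1D from 58 and 17 counts, and was lower there by the rule (2.51% of all genes). The type I ligand Ifnb1 had 1 count in control and 0 in T1D. Of 8 genes measured between receptor and nucleus over all kept cells, 4 were below the control level (66.0% of all genes). None of them passed the rule (2.09% of all genes lower, 0.61% higher). In monocytes Socs3, a feedback inhibitor of cytokine receptors, was higher by the rule (1.5% of all genes). Jak1, the kinase bound to the receptor, stood at 260 CPM in control and 235 in T1D, and Stat3 at 169 and 216 CPM. Of 13 genes that lead to interferon production 8 were below (66.0% of all genes), and Irf8, a factor of monocytes and plasmacytoid dendritic cells, was lower at 222 and 95.7 CPM. Within plasmacytoid dendritic cells, which went from 461 to 74 cells, Irf8 stood at 2634 and 2588 CPM, and within monocytes at 296 and 222 CPM.

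Of 49 other interferon-induced genes measured over all kept cells, 43 were below the control level (66.0% of all genes). By the rule 7 were lower (Ifi27, Ifi27l2a, Ifitm3, Ifi203, Slfn5, Mndal and Ifi209, against 2.09% of all genes), with none higher. Ifitm3, a membrane protein that stops virus entry, stood at 484 CPM in control and 214 in T1D. Slfn2, which guards quiescence of immune cells, stood at 396 and 478 CPM. The 7 interferon gamma-induced genes measured were all below the control level without passing the rule, with Gbp7 at 31.4 and 26.6 CPM and Gbp9 at 11.9 and 6.64 CPM. In mature neutrophils 32 of 38 other interferon-induced genes were below (47.8% of all genes), with 7 lower (1.64% of all genes) and 1, Apobec3, higher (1.92%).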

How the data were processed

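Single cells of bone marrow were sequenced from 1 control and 1 T1D library. The values the authors deposited are whole-number counts for each gene in each cell barcode, not normalized. Per the submitters' processing notes, bcl2fastq 2.19, featureCounts and the mouse build mm9 were used. No aligner, gene annotation, barcode calling, strand setting or collapse of molecular identifiers is named in the labels, so a count may be a read or a molecule.

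Barcodes with 200 or more genes and no more than 20% mitochondrial counts were kept, which removed 77 control and 192 T1D barcodes. The kept cells held 57296558 counts in control and 51680532 in T1D. No doublet caller was run. Cells were clustered without the members and pathway genes (2000 variable genes per library, 30 principal components, 15 neighbours, Leiden resolution 1 in igraph 0.11.9, 10 starts). A cluster was named from at least 3 supporting markers, by a rule refined after the clusters were seen. A cluster with both monocyte and mature B markers stayed unnamed, as did one led by Col1a2 and Col1a1, where no marker of its best-supported name was among the leading genes. The members and gene lists were chosen with earlier results of these data known.

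Counts were summed per class with numpy 2.4.6 and scipy 1.17.1 in Python 3.11.15. No differential test was run, since each group had 1 library. The size rule was tested on simulated counts. In mature neutrophils (17512 genes) it recovered 8 of 50 genes lowered 2-fold, 46 of 50 lowered 3-fold and 50 of 50 lowered 4-fold. It called 0 of 4743 unchanged genes there. Both simulated libraries were drawn from 1 pooled profile with counting error only, without a spread between animals or a difference in cluster mix. The simulation therefore does not give the rate of false calls in the real libraries. Members at 10 CPM or more over all cells, those at 50 CPM or more in a class and those passing the size rule in mature neutrophils, monocytes or granulocyte-monocyte progenitors are named with values. The others are given by count or by single values picked after they were seen. A gene of the pathway lists is not reported here and is left out of their counts. From each pathway list the 4 genes with the highest CPM could be named. Alternatives were TMM (edgeR 4.0.16) and DESeq2 1.42.0 scaling, other totals, minimums, cell filters, clusterings, marker-based classes and subtraction of free RNA. Promoters came from RefSeq tables on GRCm38.p6. Columns of per-sample values left unused numbered 0.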

Additional observations from a re-analysis of the deposited data

Results flagged for a closer look

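Ly6e had log2 ratios of T1D over control on opposite sides of 0 in different classes. The ratio was 0.81 in mature neutrophils, at 138 CPM in control and 247 in T1D, and -0.54 in the basophil or mast class, at 1696 and 1166 CPM. These log2 ratios differed by 1.35, and the difference was not tested.

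An unnamed cluster led by Scd1, Mx1 and Cd74 (137 control and 33 T1D cells) entered no class comparison. Some members stood higher in its T1D cells than over control cells of every type, and only those members are listed here. Irf1 stood at 108 CPM (60.2 to 178), against 31.5 CPM over all control cells. Zbp1 stood at 100 CPM (54.9 to 169), against 21.6. Mx1 stood at 35.9 CPM (11.6 to 83.7), against 10.3, and is itself among the leading genes of the cluster. Ly6e stood at 1844 CPM (1625 to 2084), against 863. These values rest on 33 cells of a cluster with monocyte and mature B markers. The level in the 137 control cells of the same cluster is not set beside them. Cell type and library therefore cannot be told apart in these values, and the differences were not tested.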

How the results depend on the processing

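No paired analysis was possible because each group holds 1 library, and no library could be left out. The 38 members that reached the minimum fell to 25 at 50 CPM. Over all kept cells the 2 lower members became 5 when the totals excluded ribosomal RNA, 5 with the mean of each cell's own CPM, 9 with 1 CPM added, 1 at a minimum of 50 CPM, 4 in cells with at least the lowest control total, 1 without plasmacytoid dendritic cells and 4 with the class mix of the control library. In mature neutrophils the 11 became 5 at 50 CPM and 7 in the cluster led by Clec4d alone. In monocytes the 6 became 12 with the mean of each cell's own CPM, 12 with 1 CPM added, 1 at 50 CPM, and 17 and 14 in 2 of the single clusters. In granulocyte-monocyte progenitors 0 became 3 in 1 cluster, and other clustering starts kept the direction of as few as 8 of 18 members there. Sensors lay below effectors in 2 classes instead of 6 with the synthetases as effectors. The 17 members higher in mature neutrophils than in progenitors in control became 28 with TMM, 29 with DESeq2 and 9 at 50 CPM, and the 15 in T1D became 6 at 50 CPM. The causes were not tested. Single clusters and other starts of the clustering were alternatives chosen after seeing the data.

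Ratios of single members were recomputed under these settings for all kept cells, mature neutrophils, monocytes and granulocyte-monocyte progenitors only. Of these 2472 log2 ratios, 241 moved by more than their counting error. No member that passed the size rule in those comparisons changed side. A change of side among the members that passed the rule in the other classes was not tested. TMM moved all log2 ratios over all kept cells by 0.13. Free RNA was subtracted within classes only, with a cap of 95%, so it gave no value for all kept cells. Intervals cover counting error, and the spread between animals is unknown.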
